A study of Homo sapiens with 48 samples.

Results

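The 9 genes described here are NFE2L2, which encodes NRF2, its inhibitor KEAP1, and 7 genes that NRF2 is known to activate, NQO1, TXNRD1, GCLC, GCLM, HMOX1, SRXN1 and OSGIN1. They were taken by gene symbol from a table of 61815 genes, and all 9 passed the filter on low counts that left 20009 genes for testing. The 48 RNA-seq libraries, in 16 groups of 3, came from 22Rv1, which is a castration-resistant human prostate cancer cell line, and from its derivatives. Rv1-WT was the parental line and Rv1-Luc a subline given firefly luciferase by lentivirus. The other lines lacked functional CDK8 and CDK19, the paired kinases of the transcriptional Mediator complex, after CRISPR knockout of both genes, and re-expressed wild-type CDK8 (dKO-8), kinase-dead CDK8 (dKO-8M), wild-type CDK19 (dKO-19) or kinase-dead CDK19 (dKO-19M) from a lentivirus. Cells of each line were treated for 72 h with SNX631, which inhibits CDK8 and CDK19, at 500 nM, or with the vehicle, 0.1% DMSO. Fetal bovine serum (FBS), which contains androgen, was the medium supplement for every line. Rv1-WT and Rv1-Luc were also grown in androgen-depleted medium with charcoal-stripped serum (CSS), after 1 passage in it. Each line is a separately derived population, so kinase state or luciferase and the history of the line cannot be told apart between lines.

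NRF2 is a transcription factor that KEAP1 holds in the cytoplasm and delivers to the proteasome. Oxidants and electrophiles modify KEAP1, NRF2 then escapes degradation, enters the nucleus, pairs with a small MAF protein and binds antioxidant response elements beside genes of glutathione synthesis, thioredoxin recycling and detoxification. Most of this control acts on the stability of the NRF2 protein, which RNA counts do not measure.

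Rv1-WT libraries held 13.2 to 18.2 M gene counts and the libraries of the other lines 19.3 to 31.5 M. CDK8 RNA was at 60.5 to 71.4 CPM (gene counts scaled to a common library size of 1 M) in dKO-8. It was at 118 to 134 CPM in dKO-8M, against 21.3 to 29.8 CPM in the lines without a CDK8 transgene. CDK19 RNA was at 469 to 519 CPM in dKO-19 and at 298 to 360 CPM in dKO-19M, against 101 to 281 CPM elsewhere. So kinase-dead and active lines also differed in the RNA of the re-expressed kinase. The part of this in comparisons between those lines was not tested. These counts check the RNA of the re-expressed kinase and not the knockout, since an edited gene can still be transcribed. They do not give protein levels. By Western blot, the paper reported less CDK8 in dKO-8 than in the parental cells, and more CDK19 in dKO-19 and dKO-19M. Luciferase reads were present at 510 to 540 CPM in the 12 Rv1-Luc libraries and at 0 in the other 36. The prostate luminal genes HOXB13 (173 to 317 CPM), KRT8, KRT18 and EPCAM were present in every library, while KLK2 and KLK3 did not exceed 19 and 11.6 CPM. Of 9 markers of other cell types, ALB ranged from 0.249 to 564 CPM and was highest in Rv1-WT, and the other 8 together held 3.49 to 12 CPM, of which COL1A1 was 2.54 to 10.8 CPM. KRT5 and TP63 had at most 3.5 and 5 counts in any library. Replicate 1 of dKO-19M with vehicle stood apart from its group, where the chi-square of 2 libraries divided by its degrees of freedom reached 16.5, against a median of 2.04 over all 48 replicate pairs, so calls among the 9 genes that change without it are given both ways.

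TXNRD1 and GCLM are shown first because their promoters hold the antioxidant response element core and their RNA is returned to below. RefSeq promoter windows on GRCh38.p14, from 250 bases before to 50 bases after an annotated start, were found for 8 of the 9 genes, in 11 windows. The core TGACNNNGC was searched on both strands and was present in 4 of these windows, in KEAP1, TXNRD1 and GCLM, and in 13.3% of all 35116 promoter windows. Each stretch below gives the 119 bases before the start and the first transcribed base, with the core or its reverse complement in capitals. They are chr12:104215660-104215779 on the plus strand for TXNRD1 and chr1:93909430-93909549 on the minus strand for GCLM.
TXNRD1: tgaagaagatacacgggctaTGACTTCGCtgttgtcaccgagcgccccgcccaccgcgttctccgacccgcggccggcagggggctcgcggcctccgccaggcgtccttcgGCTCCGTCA
GCLM: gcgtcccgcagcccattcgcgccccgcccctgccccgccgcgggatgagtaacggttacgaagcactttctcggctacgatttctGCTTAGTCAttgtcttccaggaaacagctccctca
In TXNRD1 one match began 99 bases before the start on the strand of the gene and one 8 bases before it on the other strand, and in GCLM the match began 34 bases before the start on the other strand. A second TXNRD1 window held a match 102 bases before its start, and a second KEAP1 window held matches 54 and 31 bases before its start. A match is a description of the letters and was not tested for binding. Bases outside the windows were not searched, so a gene without a match may hold the core further from its start.

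On GRCh38, with GENCODE gene models, NFE2L2 lies at chr2:177227595-177392697, KEAP1 at chr19:10486120-10503741, NQO1 at chr16:69706996-69726951, TXNRD1 at chr12:104215779-104350305, GCLC at chr6:53497341-53616970, GCLM at chr1:93885205-93909456, HMOX1 at chr22:35380361-35394214, SRXN1 at chr20:646615-653370 and OSGIN1 at chr16:83948282-83966332. All 9 are protein coding, and only TXNRD1, HMOX1 and OSGIN1 are on the plus strand. Reads falling on 2 genes were divided by the authors, and several of these genes overlap others. SRXN1 shared 85.0% of its exon bases with ENSG00000270299 on the same strand, and the counts of these 2 genes had ratios between 1.01 and 1.05, so SRXN1 values cannot be separated from that gene. NFE2L2 shared 17.6% of its exon bases with a gene on the same strand, OSGIN1 13.9%, and NQO1 17.7% with an antisense gene.

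Levels per kilobase of exon differed by far more between the genes than between the groups. Averaged over the 16 groups, TXNRD1, the cytosolic thioredoxin reductase, stood highest at 45.7 CPM per kilobase. KEAP1 followed at 20.4, SRXN1, which repairs overoxidized peroxiredoxins, at 17.5, and GCLC, the catalytic subunit of the enzyme that limits glutathione synthesis, at 12.8. NFE2L2 itself stood at 11.6, GCLM, the regulatory partner of GCLC, at 6.74, and NQO1, a quinone reductase, at 5.29 CPM per kilobase. HMOX1, the inducible heme oxygenase, at 1.6 and OSGIN1, an oxidative stress-induced growth inhibitor, at 0.766 were the lowest, with as few as 22 and 19.83 counts in a library.

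The range across groups also separated the genes. The highest group mean was 4.8-fold the lowest for HMOX1, 3.84-fold for NQO1, 2.48-fold for GCLC, 1.97-fold for OSGIN1, 1.87-fold for TXNRD1, 1.8-fold for GCLM and 1.78-fold for SRXN1. The 2 regulators varied least, at 1.58-fold for KEAP1 and 1.44-fold for NFE2L2. Few neighbouring groups in the order of levels were parted by their replicates, from 0 of 15 for OSGIN1 to 5 of 15 for TXNRD1. The median within-group coefficient of variation was 19.2% for OSGIN1 and 15.1% for HMOX1, and 2.22% to 7.53% for the other 7.

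**Figure D1:**
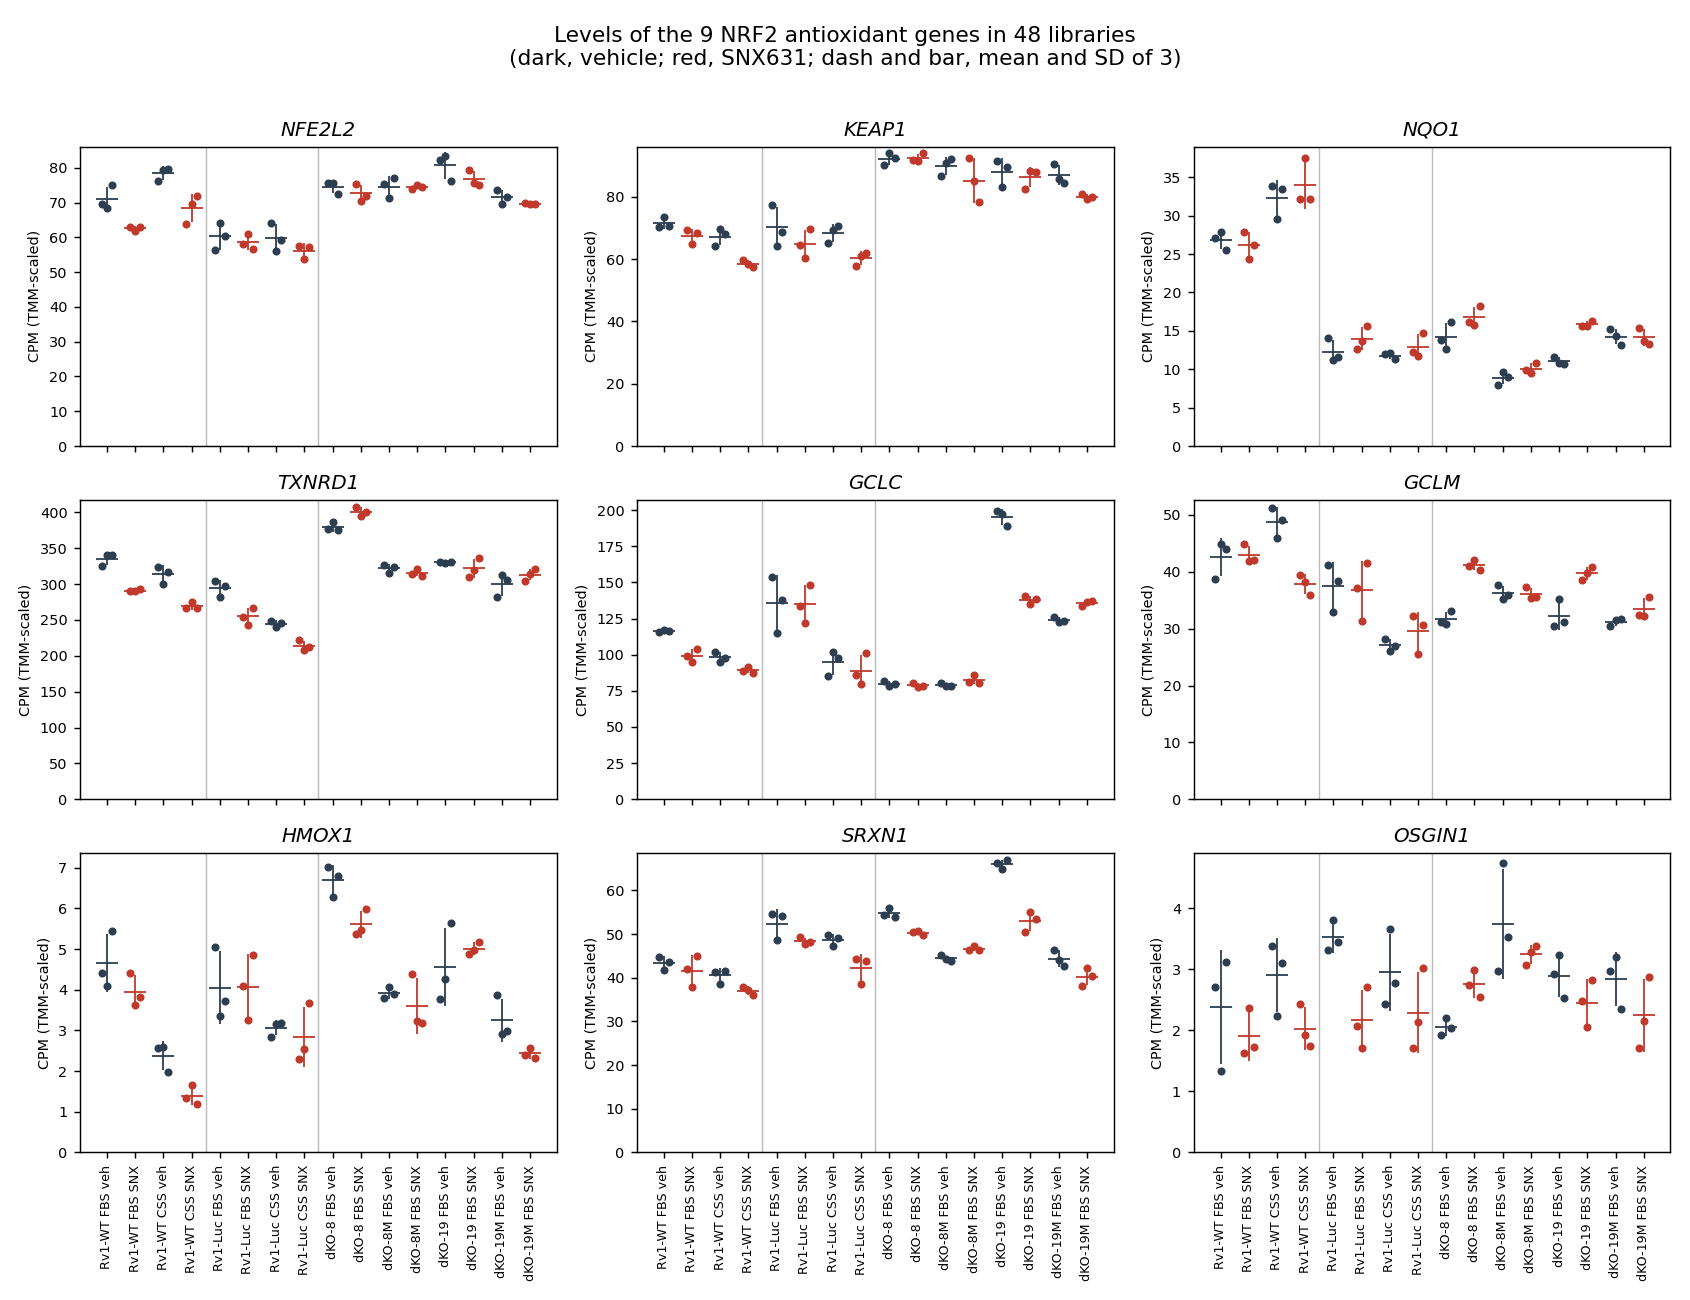
Levels of the 9 genes in all 48 libraries, in CPM on axes that start at 0, with a point for each library and a dash and bar for the mean and SD of 3. KEAP1 was at 78.2 to 94.1 CPM in the 24 libraries of the dKO lines and at 57.4 to 77.4 CPM in the 24 libraries of Rv1-WT and Rv1-Luc, and GCLC stood apart in dKO-19 with vehicle.

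The first question was what inhibition of CDK8 and CDK19 did to these genes. A gene was called changed when edgeR's false discovery rate (FDR), adjusted over all 20009 genes, was under 0.01 and the fold change was over 1.5, the limits that the study used. Of the 72 tests of 9 genes in 8 comparisons of SNX631 with vehicle, 1 was called (1.39%), against 2.45% over all genes. At an FDR under 0.05 with no fold limit, 18 of 72 passed, 15 lower and 3 higher, against 15.3% over all genes. Comparisons of SNX631 and of medium in 1 line share libraries, as do those between lines, and they are not independent. By comparison, 2.39% and 4.23% of all genes were called in Rv1-WT in FBS and CSS, 3.67% and 4.06% in Rv1-Luc, 1.71% in dKO-8, 3.41% in dKO-19, and 0.015% and 0.09% in the kinase-dead dKO-8M and dKO-19M. Groups of 3 did not overlap for 30% and 38% of all genes in Rv1-WT, 29.8% and 35.4% in Rv1-Luc, 35.4% in dKO-8, 21% in dKO-8M, 37.7% in dKO-19 and 15.6% in dKO-19M, so separation alone was common. ALB fell with SNX631 in Rv1-WT (551 to 202 CPM in FBS, 464 to 174 CPM in CSS) and in Rv1-Luc (63.3 to 19 and 69.8 to 22.1 CPM). In the dKO lines ALB averaged at most 3.39 CPM in a group. Its changes there were 0.31 in dKO-8, -0.90 in dKO-8M, -0.53 in dKO-19 and -0.46 in dKO-19M, none called. The other 8 markers of other cell types together held 7.2 to 8.76 CPM with vehicle and 5.9 to 7.44 CPM with SNX631 in Rv1-WT in FBS. In CSS they held 8.73 to 12 and 7.35 to 10.6 CPM. In Rv1-Luc they held 9.8 to 11.9 and 7 to 8.57 CPM in FBS, and 9.32 to 11.1 and 10.2 to 10.7 CPM in CSS. KRT5 and TP63 were at or near 0. The part of these markers in the values of the 9 genes was not tested. In bulk RNA, fewer cells expressing a gene and less RNA per cell cannot be told apart.

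The regulators shifted little with SNX631. NFE2L2 was at 69.7, 68.5 and 74.9 CPM with vehicle and at 63.0, 62.0 and 63.0 CPM with SNX631 in Rv1-WT in FBS. The groups did not overlap, and the log2 fold change was -0.18 (SE 0.0514, FDR = 0.0097). In CSS the Rv1-WT change in NFE2L2 was -0.20 (SE 0.0495, FDR = 0.00164), and in the other 6 comparisons it was between -0.09 and 0.00 with an FDR of 0.178 or more. KEAP1 was at 64.2, 69.6 and 67.9 CPM with vehicle and at 59.7, 58.3 and 57.4 CPM with SNX631 in Rv1-WT in CSS (log2 fold change -0.20, SE 0.0558, FDR = 0.00466). In Rv1-Luc in CSS the KEAP1 change was -0.18 (SE 0.0536, FDR = 0.0092). All 4 of these changes were under the fold limit.

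TXNRD1, the most abundant of the 9, was lower with SNX631 in every comparison of Rv1-WT and Rv1-Luc. In Rv1-WT in FBS its values were 325, 341 and 340 CPM with vehicle and 290, 290 and 293 CPM with SNX631. In Rv1-Luc in CSS they were 249, 240 and 245 CPM with vehicle and 222, 209 and 212 CPM with SNX631. All 3 treated libraries were below all 3 vehicle libraries in each of the 4 comparisons, with log2 fold changes of -0.20 (SE 0.0382, FDR = 5.45e-05) and -0.22 (SE 0.0381, FDR = 6.05e-06) for Rv1-WT in FBS and CSS, and -0.21 (SE 0.0377, FDR = 2.05e-05) and -0.19 (SE 0.0382, FDR = 6.84e-05) for Rv1-Luc. The 4 changes are well inside the 1.5-fold limit. In dKO-8, dKO-8M, dKO-19 and dKO-19M the TXNRD1 change was 0.08, -0.03, -0.04 and 0.06 (0.02 without dKO-19M vehicle replicate 1), with an FDR of 0.159 or more. In dKO-8 all 3 treated libraries were above all 3 vehicle libraries. Whether these responses differ from those of Rv1-WT or Rv1-Luc was not tested.

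The glutathione synthesis pair gave different values with SNX631 from line to line, and the pair was not tested against each other. GCLC was lower in Rv1-WT in FBS, at 116, 117 and 117 CPM with vehicle and at no more than 104 CPM in any library with SNX631 (log2 fold change -0.23, SE 0.0713, FDR = 0.0246). In CSS the groups did not overlap either, with a change of -0.14 (SE 0.0715, FDR = 0.169). GCLC in dKO-19 was at 200, 198 and 189 CPM with vehicle and at 141, 135 and 138 CPM with SNX631. No library of one group reached the other, and the log2 fold change was -0.50 (SE 0.0662, FDR = 9.38e-08), short of the 1.5-fold limit. In dKO-19M the GCLC values were 126, 122 and 124 CPM with vehicle and 134, 137 and 137 CPM with SNX631, a change of 0.13 (SE 0.0669, FDR = 0.359), or 0.14 (SE 0.0796, FDR = 0.516) without vehicle replicate 1. The SNX631 libraries of dKO-19 and dKO-19M overlapped, and every dKO-19M library was below every dKO-19 vehicle library. In dKO-8 the change was -0.02 (SE 0.0709, FDR = 0.884), with all 6 libraries between 77.4 and 81.8 CPM.

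GCLM was higher with SNX631 in the derivatives with an active kinase. In dKO-8 it was at 31.3, 30.8 and 33.1 CPM with vehicle and at 41.1, 42.1 and 40.4 CPM with SNX631, a log2 fold change of 0.37 (SE 0.0724, FDR = 0.000109). In dKO-19 the change was 0.30 (SE 0.0735, FDR = 0.00157). The GCLM change was -0.01 (FDR = 0.993) in dKO-8M, and it was 0.10 (FDR = 0.557) in dKO-19M, or 0.08 (FDR = 0.764) without vehicle replicate 1. In Rv1-WT in CSS GCLM was lower, as was the GCLC estimate, at 51.2, 46.0 and 49.1 CPM with vehicle and 39.4, 38.2 and 36.0 CPM with SNX631 (log2 fold change -0.37, SE 0.0732, FDR = 7.98e-05), while in FBS the change was 0.01. In Rv1-Luc the GCLM changes were -0.03 (FDR = 0.815) in FBS and 0.12 (FDR = 0.283) in CSS.

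Of the remaining targets, SRXN1 had a negative estimate in all 6 settings with an active kinase, from -0.31 to -0.05, with an FDR under 0.05 in 2 of them. The kinase-dead lines gave 0.07 in dKO-8M and -0.14 in dKO-19M (-0.10 without vehicle replicate 1), neither with an FDR under 0.05. In Rv1-Luc in CSS it was at 49.7, 47.4 and 49.2 CPM with vehicle and at 44.2, 38.5 and 43.9 CPM with SNX631, with no overlap (log2 fold change -0.21, SE 0.0521, FDR = 0.0017). NQO1 in dKO-19 was at 11.6, 10.8 and 10.7 CPM with vehicle and at 15.7, 15.6 and 16.3 CPM with SNX631 (log2 fold change 0.52, SE 0.097, FDR = 2.65e-05). In dKO-19 SRXN1 was at 66.2, 64.8 and 66.9 CPM with vehicle and at 50.5, 55.0 and 53.5 CPM with SNX631 (log2 fold change -0.31, SE 0.0503, FDR = 1.65e-06). So within dKO-19 GCLC and SRXN1 were lower and NQO1 and GCLM higher, with no overlap between the groups for any of the 4. Over all genes, 37.7% had no overlap in this comparison. HMOX1 in Rv1-WT in CSS was at 2.56, 2.60 and 1.97 CPM with vehicle and at 1.33, 1.65 and 1.20 CPM with SNX631 (log2 fold change -0.76, SE 0.234, FDR = 0.0114), and without vehicle replicate 3 the change was -0.88 and a call (FDR = 0.0076).

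OSGIN1 gave the only call. In Rv1-Luc in FBS it was at 3.32, 3.82 and 3.45 CPM with vehicle and at 2.07, 1.72 and 2.71 CPM with SNX631 (log2 fold change -0.71, SE 0.199, FDR = 0.00641). The groups did not overlap, but the call was lost without vehicle replicate 2 (FDR = 0.0342), vehicle replicate 3 (FDR = 0.0156), SNX631 replicate 1 (FDR = 0.0247) or SNX631 replicate 2 (log2 fold change -0.56, FDR = 0.0709).

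With SNX631, edgeR called 0 of the 9 genes in each kinase-dead line, dKO-8M and dKO-19M, with 0 at an FDR under 0.05, against 0.485% and 2.41% of all genes at that limit. At an unadjusted p under 0.05 dKO-8M had 0 and dKO-19M had 3, which were KEAP1, HMOX1 and SRXN1, and DESeq2 called 0 in both. Without vehicle replicate 1 of dKO-19M the FDR of the 9 genes there was 0.487 or more.

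**Figure D2:**
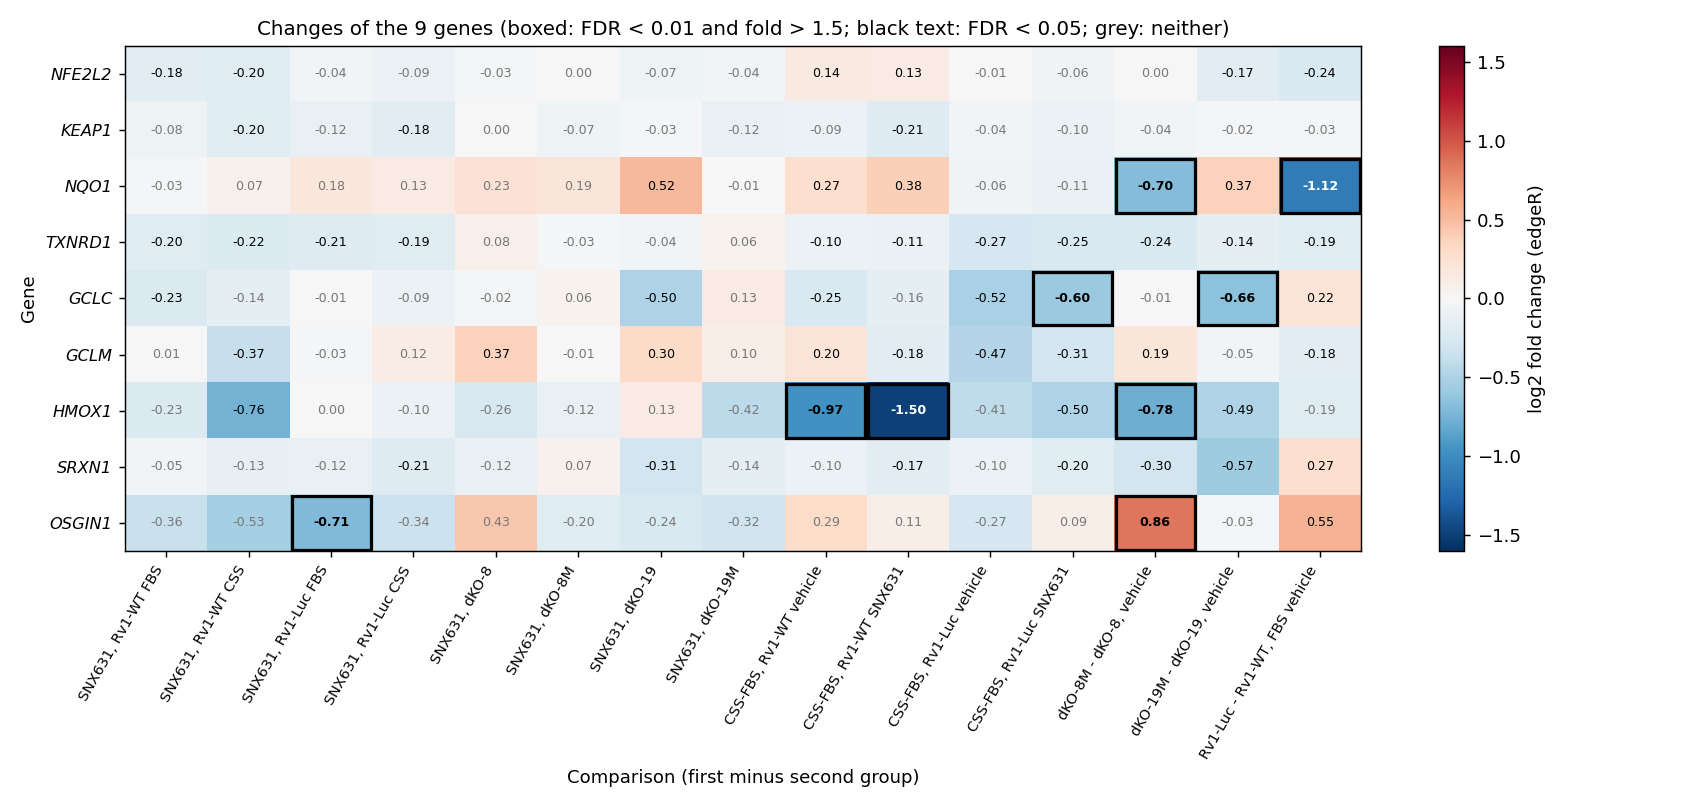
Log2 fold changes of the 9 genes in the 15 comparisons of 3 against 3 libraries, with color and printed number giving the edgeR estimate, boxes marking an FDR under 0.01 with a fold change over 1.5, dark text an FDR under 0.05, and grey text neither. The 9 boxes are spread over 7 columns, and no gene is boxed in the SNX631 columns other than OSGIN1 in Rv1-Luc in FBS.

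The second question was the effect of androgen-depleted medium in Rv1-WT and Rv1-Luc. Of 36 tests 3 were called (8.33%), all lower, against 5.43% of tests over all genes. At an FDR under 0.05, 21 passed, 16 of them lower, against 28%. Calls were made for 10.9% and 7.83% of genes in Rv1-WT with vehicle and SNX631 and for 1.49% and 1.51% in Rv1-Luc, and groups did not overlap for 51.9%, 48.5%, 26.4% and 26.2%. HMOX1 fell in Rv1-WT from 4.41, 4.08 and 5.45 CPM in FBS to 2.56, 2.60 and 1.97 CPM in CSS with vehicle. This was a log2 fold change of -0.97 (SE 0.188, FDR = 1.69e-05), and with SNX631 the fall was -1.50 (SE 0.214, FDR = 4.18e-08). In each pairing all CSS libraries were below all FBS libraries. In Rv1-Luc the HMOX1 changes were -0.41 (SE 0.162, FDR = 0.0814) with vehicle and -0.50 (SE 0.167, FDR = 0.0344) with SNX631, the latter a call without FBS replicate 2 (-0.65, FDR = 0.00894) or CSS replicate 3 (-0.74, FDR = 0.00492).

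GCLC was lower in CSS than in FBS with vehicle in both lines, and its call came from Rv1-Luc. With SNX631 it fell in Rv1-Luc from 134, 122 and 148 CPM to 86.1, 79.7 and 101 CPM, a log2 fold change of -0.60 (SE 0.0684, FDR = 9.89e-09) just past the 1.5-fold limit. The change was under that limit without FBS replicate 3 (-0.53), CSS replicate 1 (-0.58) or CSS replicate 2 (-0.53). With vehicle the Rv1-Luc libraries went from 154, 115 and 138 CPM to 85.0, 102 and 97.6 CPM (log2 fold change -0.52, SE 0.0678, FDR = 2.88e-07). The FBS vehicle libraries of Rv1-Luc were widely spread, and without the lowest, replicate 2, the change was -0.62 (FDR = 2.03e-11) and past the limit. The Rv1-WT change was -0.25 (SE 0.0709, FDR = 0.00381) with vehicle and -0.16 (SE 0.0719, FDR = 0.0812) with SNX631.

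GCLM differed between the lines in this comparison with vehicle. In Rv1-Luc with vehicle it was at 41.1, 33.0 and 38.4 CPM in FBS and at 28.2, 26.1 and 27.0 CPM in CSS (log2 fold change -0.47, SE 0.0736, FDR = 3.7e-06). In Rv1-WT with vehicle it was at 38.8, 44.9 and 44.1 CPM in FBS and at 51.2, 46.0 and 49.1 CPM in CSS (log2 fold change 0.20, SE 0.0734, FDR = 0.0222). The difference between the lines, tested as an interaction, was -0.66 (SE 0.104, FDR = 5.54e-07), beside 8.65% of genes called in that interaction. Under the fold limit but with an FDR under 0.05 there were also NQO1 (-0.33, SE 0.127, FDR = 0.0363), TXNRD1 (-0.17, SE 0.0536, FDR = 0.00996) and GCLC (-0.27, SE 0.0981, FDR = 0.0279). Of all genes, 34.1% had an FDR under 0.05 in it. With SNX631 GCLM was lower in CSS in both lines, by log2 changes of -0.18 (SE 0.075, FDR = 0.0457) in Rv1-WT and -0.31 (SE 0.0737, FDR = 0.0018) in Rv1-Luc, and the difference between the lines with SNX631 was not tested.

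TXNRD1 was also lower in CSS, with changes of -0.27 (SE 0.0378, FDR = 3.86e-07) in Rv1-Luc and -0.10 (SE 0.038, FDR = 0.0344) in Rv1-WT with vehicle on the log2 scale. NQO1 was higher in Rv1-WT in CSS, at 33.9, 29.6 and 33.5 CPM against 27.1, 27.9 and 25.5 CPM in FBS (log2 fold change 0.27, SE 0.0834, FDR = 0.00576). NQO1 is also a known target of the aryl hydrocarbon receptor. Of 6 genes of that receptor pathway, 5 were higher in the same comparison at an FDR under 0.05. Of all genes, 21.8% were higher at that limit and 44.9% passed it in either direction. The other, AHRR, gave 0.01 (SE 0.2, FDR = 0.984). CYP1A1, the most responsive target of the receptor, was at 19.9 CPM against 2.22 CPM (log2 fold change 3.17, SE 0.282, FDR = 1.39e-11), and AHR itself at 41.2 CPM against 22.8 CPM (log2 fold change 0.85, SE 0.0728, FDR = 3.75e-15). In Rv1-Luc the same changes were -0.06 for NQO1, -0.72 for CYP1A1 and 0.09 for AHR. Of 24 tests of 6 genes of this receptor pathway in the 4 comparisons of medium, 5 were called (20.8%, against 5.43% over all genes), all higher and in Rv1-WT. At an FDR under 0.05, 8 were higher and 4 lower, and those lower were TIPARP (-0.27 and -0.44) and CYP1A1 with vehicle in Rv1-Luc and AHRR (-0.59) with SNX631 in Rv1-WT. Their part in the NQO1 value was not tested.

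The third question was how kinase-dead derivatives differed from active ones with vehicle. Here 4 of 18 tests were called (22.2%), 1 higher and 3 lower, against 7.31% over all genes. At an FDR under 0.05, 12 passed, against 31.9%. In dKO-8M against dKO-8 and dKO-19M against dKO-19, 7.03% and 7.6% of genes were called and groups did not overlap for 47% and 39.4%. In dKO-8M against dKO-8, NQO1 fell from 13.8, 12.6 and 16.1 CPM to 7.98, 9.60 and 8.98 CPM (log2 fold change -0.70, SE 0.0997, FDR = 6.6e-08). HMOX1 fell from 7.01, 6.28 and 6.79 CPM to 3.79, 4.06 and 3.90 CPM (log2 fold change -0.78, SE 0.145, FDR = 1.92e-05). In neither gene did the groups overlap. SNX631 in dKO-8 gave 0.23 for NQO1 and -0.26 for HMOX1, neither with an FDR under 0.05.

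OSGIN1 rose in the same comparison, from 1.92, 2.20 and 2.04 CPM in dKO-8 to 2.98, 4.74 and 3.53 CPM in dKO-8M (log2 fold change 0.86, SE 0.205, FDR = 0.000708). Without the highest library, dKO-8M replicate 2, the change was 0.65 with an FDR of 0.0259 and no longer a call. TXNRD1 was at 377, 386 and 375 CPM in dKO-8 and at 327, 316 and 323 CPM in dKO-8M (log2 fold change -0.24, SE 0.0374, FDR = 8.11e-07).

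In dKO-19M against dKO-19, GCLC fell from 200, 198 and 189 CPM to 126, 122 and 124 CPM (log2 fold change -0.66, SE 0.066, FDR = 5.56e-11). SRXN1 went from 66.2, 64.8 and 66.9 CPM to 46.4, 44.0 and 42.6 CPM (log2 fold change -0.57, SE 0.0501, FDR = 1.86e-14), just under the fold limit. Both separations were complete, and dKO-19 with vehicle held the highest level of both genes among the 16 groups. Without dKO-19M replicate 1 the changes were -0.68 for GCLC (FDR = 1.46e-08) and -0.61 for SRXN1 (FDR = 7.24e-15), the latter then past the limit, as was HMOX1 at -0.64 (FDR = 0.00291) against -0.49 (FDR = 0.0113) with all libraries. Without dKO-19 replicate 2 SRXN1 also passed the limit (-0.59), and without dKO-19 replicate 1 HMOX1 did (-0.62). GCLC in dKO-8M against dKO-8 differed by -0.01 (SE 0.0708, FDR = 0.918). NQO1 stood in opposite directions in the 2 derivatives, with 0.37 (SE 0.0957, FDR = 0.0017) in dKO-19M against dKO-19, and 0.31 (FDR = 0.0168) without replicate 1. The vehicle libraries of these lines also enter the SNX631 comparisons above.

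Between the 2 lines with their own kinases, in FBS with vehicle, 1 of 9 genes was called (11.1%), against 17.8% of all genes, and 7 had an FDR under 0.05, against 52.5%. Groups did not overlap for 55.9% of genes. NQO1 was at 14.0, 11.2 and 11.6 CPM in Rv1-Luc and at 27.1, 27.9 and 25.5 CPM in Rv1-WT, a log2 fold change of -1.12 (SE 0.0909, FDR = 4.44e-16). It was the largest line difference of the 9 genes in this comparison, and the Rv1-WT groups were the 4 highest of the 16 for NQO1. Of the 6 aryl hydrocarbon receptor genes, CYP1A1 was higher in Rv1-Luc, at 8.58 against 2.22 CPM (log2 fold change 1.96, SE 0.309, FDR = 2e-06). At an FDR under 0.05, 3 others of the 6 were lower. CYP1B1 was at 2.16 against 7.56 CPM (log2 fold change -1.81, SE 0.169, FDR = 9.05e-14), also a call, and AHR and ARNT changed by -0.26 and -0.12. The part of these receptor genes in the NQO1 value was not tested. OSGIN1 gave 0.55 (SE 0.215, FDR = 0.027), and 0.77 (FDR = 0.00869) without Rv1-WT replicate 3, which would have been a call.

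Differences between responses were tested as 7 interactions, in which 2 of 63 tests of the 9 genes were called (3.17%), against 1.87% over all genes. At an FDR under 0.05, 9 passed, against 8.59%. The response of GCLC to SNX631 differed between dKO-19 and dKO-19M by -0.63 (SE 0.0941, FDR = 3.41e-06, 95% interval -0.82 to -0.44), and by -0.65 (FDR = 3.72e-05) without dKO-19M vehicle replicate 1. Calls were made for 2.07% of all genes in this interaction. Against dKO-8 the GCLC response in dKO-19 differed by -0.48 (SE 0.097, FDR = 0.00107), under the fold limit, where 0.885% of genes were called. The NQO1 response differed between dKO-19 and dKO-19M by 0.54 (SE 0.134, FDR = 0.00414), or 0.49 (SE 0.139, FDR = 0.0129) without dKO-19M vehicle replicate 1, and the GCLM response between dKO-8 and dKO-8M by 0.38 (SE 0.102, FDR = 0.0116), where 0.905% were called. For GCLM the difference between dKO-19 and dKO-19M did not reach an FDR under 0.05. The second call was the GCLM difference in the response to medium given above. The response to SNX631 was not called different between FBS and CSS, or between Rv1-Luc and Rv1-WT, for any of the 9 by edgeR, where 0.295% of genes were called between media in Rv1-WT, 0.08% in Rv1-Luc and 0.175% between the lines, although GCLM in Rv1-WT had a difference of -0.38 (FDR = 0.027) between the media.

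**Figure D3:**
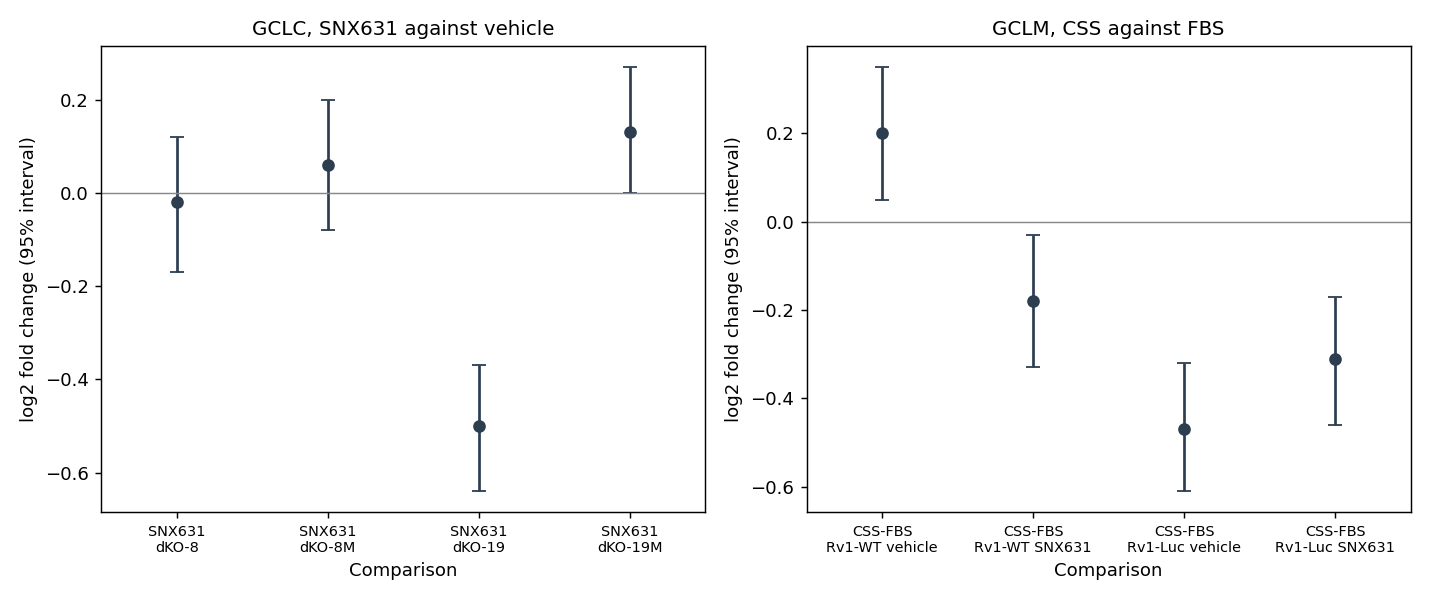
Log2 fold changes of GCLC with SNX631 in the 4 dKO lines and of GCLM in CSS against FBS in Rv1-WT and Rv1-Luc, as edgeR estimates with 95% intervals from 3 against 3 libraries. The GCLC change is -0.50 in dKO-19 and near 0 for both CDK8 lines, and GCLM is at 0.20 in Rv1-WT and -0.47 in Rv1-Luc with vehicle.

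Levels of the 9 genes over the 16 groups were loosely related for most pairs and more closely for some. Of their 36 pairs 25 had a positive Pearson's r, with a median of 0.13 and a range of -0.56 to 0.79, where the groups share lines and libraries. The highest r values were for TXNRD1 with KEAP1 (0.79) and with NFE2L2 (0.77). The lowest were for NQO1 with OSGIN1 (-0.56) and with SRXN1 (-0.55). The 3 genes most like each in level over the 16 group means, among 10542 genes averaging at least 10 CPM, were DDX3X, ZKSCAN5 and RPRD2 for NFE2L2 (highest r 0.961), and LINC01521, GNA11 and SORT1 for KEAP1 (0.968). For the targets they were ACSM3, BLOC1S5 and PTP4A1 for NQO1 (0.961), SELENOS, RNF103 and FBXO38 for TXNRD1 (0.922), UQCRC1, BAG2 and YRDC for GCLC (0.891), and DPH3, ARHGAP11A-SCG5 and PIK3CB for GCLM (0.895). HMOX1 was most like VPS18, EFNA4 and ENSG00000286104 (0.903), OSGIN1 most like PANK2, PRR11 and ENDOV (0.766), and SRXN1 most like ENSG00000270299 (0.999), with which it shares reads, TMEM117 and ENSG00000289609. None of the 9 genes is among the 3 most like another, and HMOX1 and OSGIN1 were below the level needed to be listed.

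Other genes of the pathway were examined by lists. Over all genes, 2.45% of tests were called under SNX631, 5.43% between media, 7.31% between kinase-dead and active derivatives, 17.8% between Rv1-Luc and Rv1-WT, and 4.91% over these 15 comparisons together. Of 30 further NRF2 targets 29 were tested, and over the 8 SNX631 comparisons 18 of 232 tests were called (7.76%), 9 higher and 9 lower. SLC7A11, the cystine importer that feeds glutathione synthesis, accounted for 5 of the 9 lower calls. In dKO-19 it fell from 116 to 131 CPM with vehicle to 52.4 to 54.2 CPM with SNX631 (log2 fold change -1.21, SE 0.138, FDR = 2.24e-08), and in Rv1-Luc it fell by 1.14 and 1.39 in FBS and CSS. In Rv1-WT it fell by 0.69 in CSS, and the change in FBS was -0.51 (SE 0.131, FDR = 0.00601), under the fold limit. It fell by 1.03 in dKO-8, while in dKO-8M and dKO-19M it was -0.33 and -0.20, not called, and -0.35 (FDR = 0.242) in dKO-19M without vehicle replicate 1.

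Among the higher calls, AKR1C2 and AKR1C1, aldo-keto reductases of steroid metabolism, rose in Rv1-WT by 1.31 and 1.53 in FBS and 1.51 and 1.66 in CSS. These near-identical genes can share reads, and both were under 0.2 CPM in every library of dKO-8, dKO-8M, dKO-19 and dKO-19M. ABCC2, an exporter of glutathione conjugates, rose by 0.90 and 0.97 in Rv1-Luc in FBS and CSS and by 0.92 in dKO-19. GPX2, a glutathione peroxidase, had changes of -0.74 and -0.80 in Rv1-Luc, both calls. CBR3, a carbonyl reductase, was not called under SNX631, and changed by -0.72 in CSS in Rv1-WT with each treatment.

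Changing the medium gave 16 calls in 116 tests of these targets (13.8%), 5 higher and 11 lower. SLC7A11 rose in Rv1-WT in CSS by 1.14 with vehicle and 0.96 with SNX631. In the kinase-dead comparisons 4 of 58 were called (6.9%), SLC7A11 in dKO-8M against dKO-8 at -0.78 among them, and in Rv1-Luc against Rv1-WT 7 of 29 (24.1%), 6 of them lower.

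The 14 tested partners and regulators of NRF2, which include the small MAF proteins, BACH1 and the ubiquitin ligase subunits around KEAP1, had no call under SNX631 by edgeR, 0 of 112, though 38 had an unadjusted p under 0.05 and 25 an FDR under 0.05 (against 15.3% of tests over all genes), 22 of them lower, and DESeq2 called 0. In the comparisons of medium 6 of 56 were called (10.7%). NFE2L1, the NRF2 relative that governs proteasome genes, rose in Rv1-WT in CSS by 0.79 (SE 0.0382, FDR = 2.11e-25) with vehicle and 0.61 with SNX631, and its change was -0.60 in Rv1-Luc against Rv1-WT in FBS.

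Of 27 general antioxidant genes, 20 of 216 tests were called under SNX631 (9.26%), 6 higher and 14 lower. Of the higher calls 1 was in a kinase-dead line, GSTP1, a glutathione transferase, in dKO-19M, which is named because of this value. It was at 0.276 to 0.482 CPM with vehicle and 0.16 to 3.04 CPM with SNX631, with overlapping groups (log2 fold change 2.49, SE 0.537, FDR = 0.00521), and was no longer called without vehicle replicate 1 (FDR = 0.0227). CHAC1, which degrades glutathione, fell in all 6 settings with an active kinase, with log2 fold changes from -0.83 in Rv1-WT in FBS to -2.31 in Rv1-Luc in CSS. TXNIP, the inhibitor of thioredoxin, fell in 5 of them, with -1.48 (SE 0.0663, FDR = 1.05e-20) in Rv1-WT in CSS, from 1070 to 1160 CPM with vehicle to 390 to 404 CPM with SNX631. GLRX, a glutaredoxin, rose in 5 of them, most in dKO-19, from 8.62 to 9.21 CPM with vehicle to 29.9 to 34.9 CPM with SNX631 (log2 fold change 1.82, SE 0.0989, FDR = 1.84e-22). GPX8, a peroxidase of the endoplasmic reticulum, had changes of -1.47 in dKO-8 and of -0.65 and -0.74 in Rv1-Luc, all calls. TXNRD2, the mitochondrial counterpart of TXNRD1, was not called under SNX631 in any setting, and fell by 0.67 in Rv1-WT in CSS with vehicle. The difference between these genes and the 9 members was not tested.

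**Figure D4:**
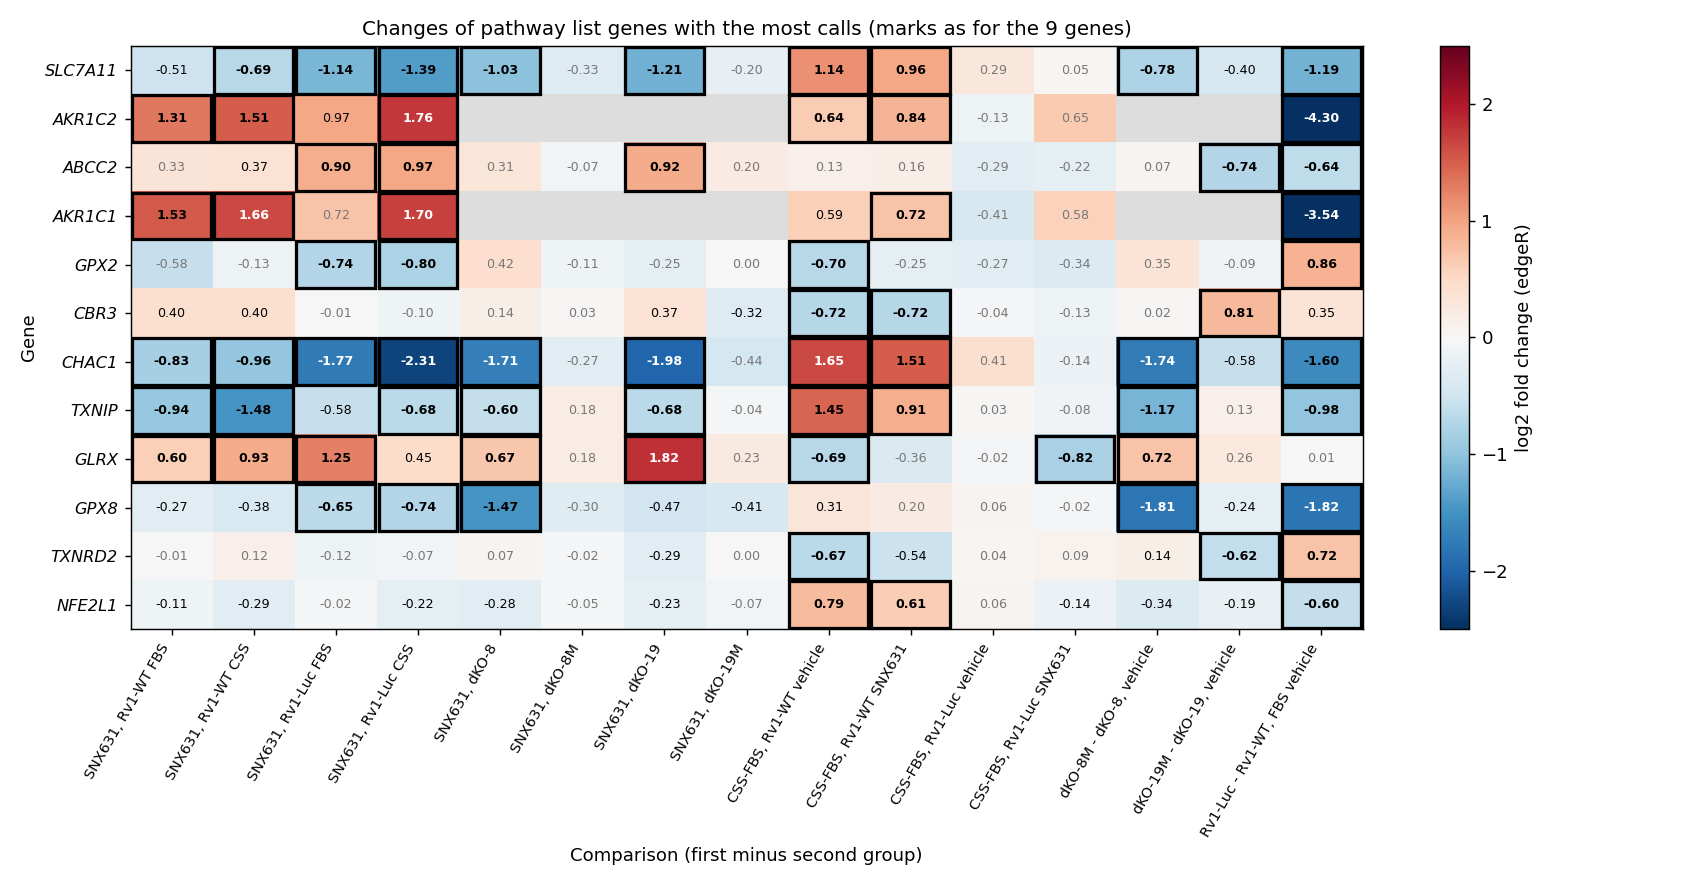
Log2 fold changes of 12 genes of the pathway lists, in the 15 comparisons of 3 against 3 libraries, with the color capped for the largest changes, boxes for an FDR under 0.01 with a fold change over 1.5 and plain grey cells where both groups averaged under 0.2 CPM. SLC7A11, CHAC1 and TXNIP are lower with SNX631 and higher in CSS in Rv1-WT, and the SNX631 columns of dKO-8M and dKO-19M hold no box among these 12 genes.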

How the data were processed

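RNA was extracted from 22Rv1 and its derivatives and sequenced as strand-marking libraries. Per the labels, the authors used FastQC, cutadapt 2.8, STAR 2.7.2b and featureCounts of Subread 2.0.3, and builds GRCh38.p13 and GRCm39 are named. The deposited values are estimated counts per gene, partly fractional because the authors divided reads shared by genes (81.6% of nonzero values were whole), and the annotation release and strand setting are not given in the sources used here. The counts were rounded for testing.

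Groups of 3 libraries were taken from the sample labels. Nothing in the labels says that replicates were independent cultures on separate days, so p-values measure only the spread between these samples. After leaving out 2 transgenes, genes passing filterByExpr (minimum count 10, total 15) were scaled by TMM (factors 0.911 to 1.07) and fitted in R 4.3.3 with edgeR 4.0.16 (robust quasi-likelihood test, 16 group means, 32 residual degrees of freedom), and p-values were adjusted by Benjamini-Hochberg over 20009 genes in each of 22 comparisons. The biological coefficient of variation was 4.2%. CPM values use TMM-scaled library sizes, and SE belongs to the log2 fold change. The chi-square of replicate pairs divided by its degrees of freedom was 1.27 or more, so each library was counted as 1 replicate. The fit was tested on data simulated from the means of 1 group, with a biological coefficient of variation of 4.2% for every gene. Differences between lines and outlying libraries were not part of that simulation.

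The 9 genes and the lists of further targets, partners, antioxidant genes, aryl hydrocarbon receptor genes and cell type markers were chosen with earlier results of these data known. From each pathway list up to 6 genes with at least 3 calls over 15 comparisons were named. GPX2, CBR3 and the others so named carry values for that reason, and AHR, AHRR, ARNT, CYP1B1, TIPARP and GSTP1 were added after their values were seen. Alternatives were DESeq2 1.42.0, other scaling, no filter, other limits, separate fits, a replicate block and leaving out each library. Same-numbered replicates were compared by the correlation of their deviations from the group means. Every pair exceeded 0.1 in 1 of 15 comparisons (SNX631 in dKO-19M, 0.186 to 0.454), where the blocked fit called no member either.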

Additional observations from a re-analysis of the deposited data

Results flagged for a closer look

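Responses of 2 genes were called different between lines by the interaction test of edgeR. The log2 response of GCLC to SNX631 was lower in dKO-19 than in dKO-19M by a difference of -0.63 (SE 0.0941, FDR = 3.41e-06), from changes of -0.50 and 0.13. All 3 SNX631 libraries were below the vehicle libraries in dKO-19 and above them in dKO-19M. Leaving out dKO-19M vehicle replicate 1, which stood apart from its group, gave -0.65 (FDR = 3.72e-05).

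The log2 response of GCLM to androgen-depleted medium with vehicle differed between Rv1-Luc and Rv1-WT by -0.66 (SE 0.104, FDR = 5.54e-07), from changes of -0.47 and 0.20. No library of one medium reached the other in either line with vehicle. With SNX631 the changes were -0.18 (FDR = 0.0457) in Rv1-WT and -0.31 (FDR = 0.0018) in Rv1-Luc, both lower, and their difference was not tested. The lines differ in more than luciferase, and these differences cannot be told apart.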

How the results depend on the processing

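None of the 67 single-gene results reversed its sign under any alternative. These were the tests of the 9 genes with an FDR under 0.05 in the main fit, which are the least likely to reverse. The other tests were not checked for this. Counts of calls among the 9 genes depended most on the limits. At an FDR under 0.05 with no fold limit they were 18 under SNX631, 21 between media, 12 between kinase-dead and active derivatives, 7 between Rv1-Luc and Rv1-WT and 9 in the interactions, and the lists had 168 (further targets), 71 (partners) and 146 (antioxidant genes). A test against a 1.5-fold change gave 0, 1, 0 and 0 calls for SNX631, medium, kinase-dead derivatives and interactions, and 16, 2 and 22 for the lists, against 45, 7 and 43. The SNX631 count of 1 became 2 with library size as the only scaling, with no filter and with DESeq2, and 0 in fits to only the libraries compared; the cause was not tested. With 1 library left out, it ranged from 0 to 2, the medium count from 2 to 4, the kinase-dead count from 3 to 6, the Rv1-Luc count from 1 to 2, the interaction count from 2 to 3, and the lists from 43 to 46, 6 to 7 and 41 to 45. Of 67 single-gene results, 63 kept their side of the limits under library size scaling, 67 under RLE, 66 without a filter and 66 under DESeq2. The GCLC difference between dKO-19 and dKO-19M was -0.58 under library size scaling, below the fold limit.

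Replicate numbers did not pair the samples in 14 of 15 comparisons, and every sample correlated best with its own number in 2 of 15. With the replicate number as a block the counts were 1, 3, 4, 1 and 2 for the 9 genes and 45, 7 and 42 for the lists, and no call among the 9 genes changed. Depth limits HMOX1 and OSGIN1 most, with as few as 22 and 19.83 counts in a library.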
